A study of Homo sapiens with 45 samples.

Results

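The respiratory chain is the set of protein complexes in the inner mitochondrial membrane that pass electrons from nutrients to oxygen and use the energy to pump protons. Its subunits were taken by gene symbol from a table of 57353 symbols: the mitochondrially encoded subunits, the NDUF genes of complex I, the SDH genes of complex II, the UQCR genes of complex III and the ubiquitous COX genes of complex IV. The rule gave 72 genes, of which 13 are encoded in mitochondrial DNA and 59 in the nucleus. It used no measured value, but it was chosen with earlier results of these data known. All 72 passed the filter on low counts in every fit. Of the mitochondrially encoded genes, 7 belong to complex I, 1 to complex III, 3 to complex IV and 2 to ATP synthase (complex V). Of the nuclear genes, 37 belong to complex I by their names, 4 to complex II, 8 to complex III and 10 to complex IV. NDUFA4 was counted with complex I by its name, although its protein is now known as a subunit of complex IV.

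Complex I (NADH dehydrogenase) and complex II (succinate dehydrogenase) feed electrons into the chain, complex III passes them to cytochrome c and complex IV hands them to oxygen. The mitochondrially encoded subunits are the hydrophobic cores of their complexes, transcribed inside the organelle from a circular genome by a dedicated polymerase, as long transcripts that are cut into separate RNAs. MT-ND6 alone among the messenger RNAs is read from the opposite strand to the others. The nuclear subunits are transcribed like other genes, made in the cytosol and imported, and the factors known to bind many of their promoters include NRF1 and the ETS factor GABP. Complex II has no mitochondrially encoded subunit.

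The study measured polyadenylated RNA from 3 breast cancer cell lines that express estrogen receptor (ER). MM134 (MDA MB 134VI) and MM330 (MDA MB 330) come from invasive lobular carcinoma, and HCC1428 from invasive ductal carcinoma, so that the ductal type stands on 1 line. Each line had 5 groups of 3 libraries, 45 in all. The groups siER_E2, siFOXA1_E2 and siMDC1_E2 received a small interfering RNA against ER (gene ESR1), against FOXA1, which opens chromatin for ER, or against MDC1, a scaffold protein of the DNA damage response. The group siNT_E2 received a non-targeting siRNA. These 4 groups were given 100 pM estradiol (E2), the natural ligand of ER, for 24 h, while siNT had the non-targeting siRNA and vehicle (0.01% ethanol). Every group had been kept for 3 days in medium stripped of hormones and transfected 24 h before E2 or vehicle, so no untransfected cells were analysed here. The comparisons were siNT_E2 against siNT, which asks what E2 does, and each knockdown against siNT_E2, which asks what each protein does in the presence of E2. All of them in a line share the siNT_E2 libraries. Whether the 3 libraries of a group were separate cultures is not given in the labels, and p-values therefore measure the spread between libraries, which may be technical.

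Libraries held 21 M to 36.7 M counts on genes. They fell into 2 classes by the share of counts on processed pseudogenes: 11 libraries had 0.337% to 0.494% and 34 had 0.123% to 0.158%. The higher class held 2 siER_E2, 1 siNT_E2 and 2 siNT libraries of HCC1428, 2 libraries of MM134 and 4 of MM330, so that siER_E2 and siNT of HCC1428 have 1 library each in the lower class. The class is not named in the labels. Each targeted gene was lower after its own siRNA in each line, with log2 fold changes of -3.12 (MM134), -3.68 (MM330) and -1.0 (HCC1428) for ESR1, -1.97, -1.86 and -1.64 for FOXA1 and -2.13, -2.30 and -1.94 for MDC1 in the same order of lines. The 5 luminal epithelial markers EPCAM, KRT8, KRT18, KRT19 and GATA3 passed the filter on low counts in all 3 lines, while of the other markers 1 or 2 of 5 fibroblast, 0 or 1 of 4 immune and 0 or 1 of 3 endothelial genes passed it. A bulk library cannot tell fewer cells of a kind from less RNA per cell.

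Mitochondrially encoded subunits dominated the messenger RNA of the module in every line. Per kilobase of transcript, their median level in siNT was 3746 CPM (counts scaled to equal library totals) in MM134, 9662 in MM330 and 12533 in HCC1428, against nuclear medians of 48.4, 47.5 and 52.6 CPM per kilobase. MT-CO1, the catalytic core of complex IV, was the highest per kilobase in MM134 (13542) and MM330 (16697), and MT-ND4 the highest in HCC1428 (25739). MT-ND6 was the lowest mitochondrially encoded member in each line, at 266, 359 and 529 CPM per kilobase in MM134, MM330 and HCC1428. Among nuclear members the highest per kilobase was NDUFV1 in MM134 (235), COX6C in MM330 (242) and COX4I1 in HCC1428 (443).

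**Figure D1:**
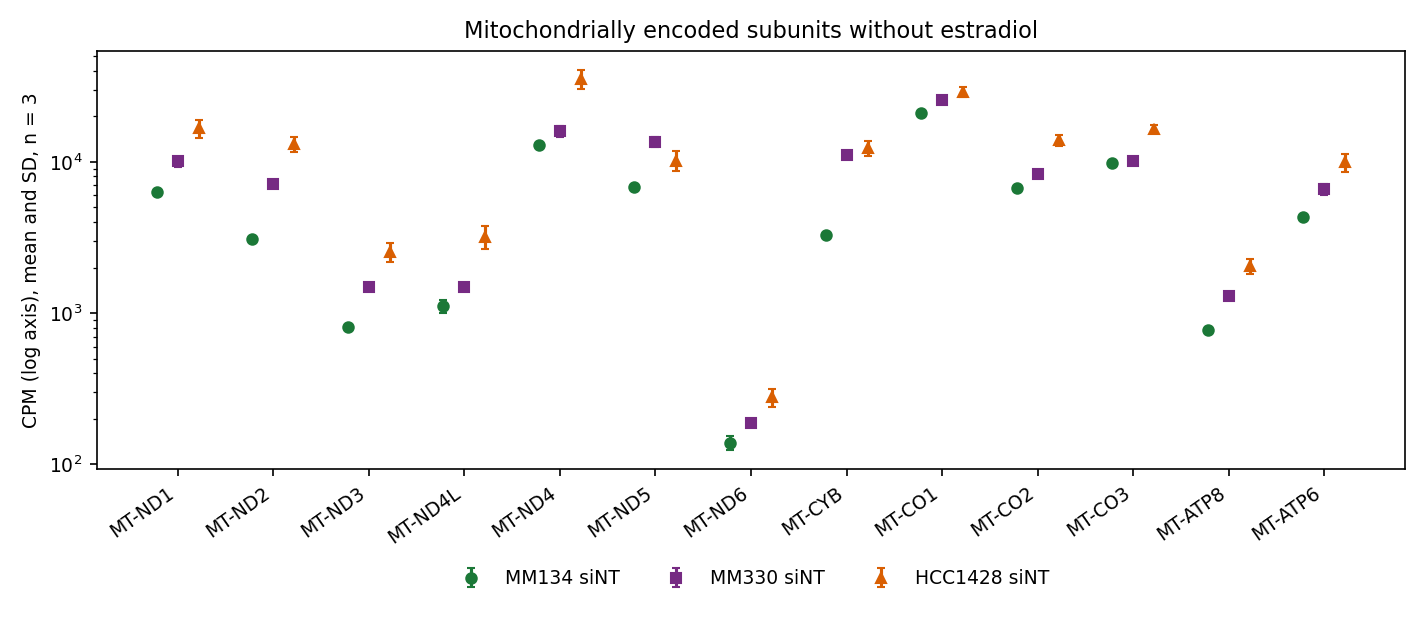
Level of the 13 mitochondrially encoded subunits in the siNT libraries of MM134, MM330 and HCC1428, in CPM on a log axis; points are group means and bars the SD over 3 libraries. MT-ND6 is the lowest gene in every line, and MM134 lies below HCC1428 at every gene.

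The mitochondrially encoded members were mostly lower in both lobular lines than in HCC1428. In siNT libraries all 13 were lower in MM134 than in HCC1428 by edgeR's quasi-likelihood test (Benjamini-Hochberg adjusted p below 0.05, here "called"), with log2 fold changes of -2.09 (MT-ND2) to -0.47 (MT-CO1). In MM330, 11 were lower than in HCC1428, MT-ND5 was higher (log2 fold change 0.41) and MT-CYB was not called. MT-ND2, a proton-pumping subunit of complex I, had 3088, 3074 and 3058 CPM in MM134 siNT, against 12109, 12247 and 14822 CPM in HCC1428 siNT. The groups lie far apart, and the highest HCC1428 library is the one of the lower pseudogene class. The nuclear members went both ways, with 19 higher and 29 lower in MM134 and 18 higher and 30 lower in MM330. Over all genes tested, 75.6% were called in MM134 against HCC1428 (35.7% higher, 39.9% lower) and 73% in MM330 against HCC1428 (35.2% higher, 37.7% lower), so the nuclear counts stand near the background of 2 unrelated lines.

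Single nuclear subunits differed widely between lines. NDUFV1 (chromosome 11, 67605653 to 67612554, GRCh38), which carries the site where complex I takes electrons from NADH, had 596, 610 and 579 CPM in MM134 siNT, against 145, 150 and 147 CPM in HCC1428 siNT, a log2 fold change of 2.01 ± 0.05 (SE; edgeR, adjusted p = 9.3e-31). In MM330 siNT it had 52.4, 46.7 and 50.3 CPM, a log2 fold change of -1.57 ± 0.06 against HCC1428 (edgeR, adjusted p = 4.7e-26). No library of any line overlaps another line at NDUFV1. NDUFC2, a small complex I subunit on the same chromosome (78068304 to 78080219), had 114, 119 and 116 CPM in MM134, against 14.7, 13.1 and 14.2 CPM in HCC1428 (log2 fold change 3.05 ± 0.08), but 76.9% of its coding bases are shared with the read-through gene NDUFC2-KCTD14, so its level is uncertain. COX4I1, the main form of complex IV subunit 4, went the other way, with 80.8, 80.7 and 81.6 CPM in MM134 against 325, 309 and 317 CPM in HCC1428 (log2 fold change -1.97 ± 0.04). NDUFB11 had 44.3, 39.4 and 43.5 CPM in MM330, against 185, 177 and 159 CPM in HCC1428 (log2 fold change -2.04 ± 0.06). Among members with at least 10 CPM the highest fold in MM330 was that of UQCRQ, a small subunit of complex III, with 120, 98.2 and 108 CPM against 62.1, 62.7 and 58.4 CPM in HCC1428 (log2 fold change 0.83 ± 0.06), and NDUFC1 was next, with a log2 fold change of 0.77 ± 0.07. NDUFV2 (1.92 ± 0.43) and NDUFA7 (1.15 ± 0.38) were higher still by log2 fold change, at levels of few counts.

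Some levels depend on how reads were assigned. MT-ATP8 and MT-ATP6 overlap on the same strand, and the transcript of MT-ATP8 (chrM:8366-8572, plus strand, GRCh38) is shown because its last 46 bases, in capitals, are also the first of MT-ATP6, so reads over them belong to both genes.
MT-ATP8: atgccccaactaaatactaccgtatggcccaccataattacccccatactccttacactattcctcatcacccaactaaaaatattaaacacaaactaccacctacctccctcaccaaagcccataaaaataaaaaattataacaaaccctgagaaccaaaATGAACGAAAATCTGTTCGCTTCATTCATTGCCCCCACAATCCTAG
Among nuclear members, 53.5% to 100% of the coding bases are shared on the same strand with another annotated gene in NDUFV2, NDUFA7, NDUFB8, NDUFA13, NDUFA9, NDUFC2, UQCR11, COX6A1 and COX8A, and these are reported as uncertain. NDUFV2, NDUFA7 and NDUFB8 stayed below 10 CPM in every group. SDHD and NDUFA11 share less, 47.7% and 36.9% of their coding bases, and their levels carry the same doubt. SDHA, whose pseudogenes are near copies, and SDHD were also low. The table further held 394 rows for nuclear copies of mitochondrial genes, of which MTATP6P1 averaged 1856 CPM and MTND2P28 486 CPM. The part of these overlaps in any difference below was not tested.

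The share of all counts that fell on the mitochondrially encoded subunits separated the lines and, in HCC1428, the groups. It was 15.6% ± 0.65 in siER_E2, 16.4% ± 0.46 in siFOXA1_E2, 14.6% ± 0.66 in siMDC1_E2, 11.9% ± 1.5 in siNT_E2 and 16.1% ± 1.4 in siNT of HCC1428 (SD, n = 3 each). The siNT_E2 libraries, numbered 2, 3 and 4 in the labels, had 13.6%, 11% and 11.1%, and each of the other 12 HCC1428 libraries had 14.1% or more. The highest siNT_E2 library is the group's only one of the higher pseudogene class. In MM134 the means lay between 7.89% (siFOXA1_E2) and 8.68% (siNT), and in MM330 between 10.3% (siMDC1_E2) and 11.1% (siER_E2). The 59 nuclear subunits together took 0.300% to 0.504% of counts in group means.

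**Figure D2:**
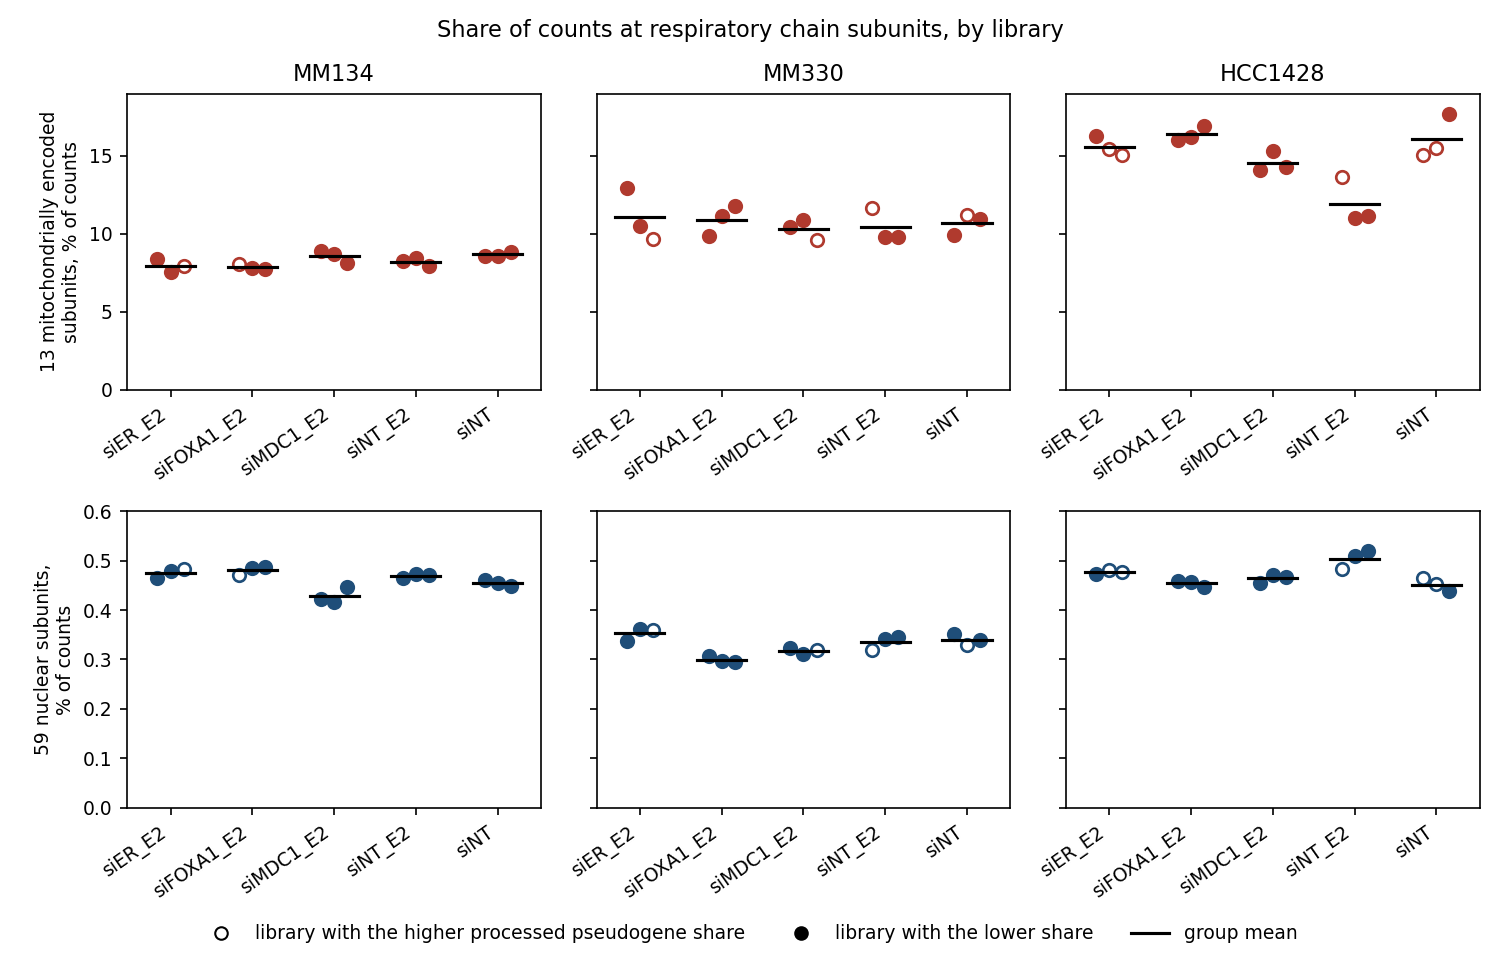
Share of each library's counts on the 13 mitochondrially encoded subunits (top row) and on the 59 nuclear subunits (bottom row), in percent, by group in the 3 lines; points are libraries, bars group means, and open circles libraries of the higher pseudogene class. In HCC1428 the siNT_E2 libraries lie below the other groups in the top row and above them in the bottom row.

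Set against each other, the shares moved in opposite directions in HCC1428. Both are parts of the same total, so a fall of the mitochondrially encoded share by itself raises the nuclear share somewhat. The ratio of the shares does not depend on that total. The log2 ratio of the mitochondrially encoded to the nuclear share was lower by 0.59 in siNT_E2 than in siNT of HCC1428, and higher by 0.47 in siER_E2, 0.61 in siFOXA1_E2 and 0.41 in siMDC1_E2 than in siNT_E2, with no overlap of libraries in any of these. Over libraries of the lower pseudogene class alone the differences were -0.91, 0.68, 0.74 and 0.54, where siNT and siER_E2 are 1 library each. Among higher-class libraries the gaps were smaller. The log2 ratio there was 4.82 in the 1 siNT_E2 library, against 5.02 and 5.10 in siNT and 5.01 and 4.98 in siER_E2. The sizes of the E2 and ER differences thus depend on the class. In MM134 the ratio was lower by 0.12 in siNT_E2 than in siNT and higher by 0.19 in siMDC1_E2 than in siNT_E2, again without overlap. In MM330 every comparison overlapped. Within the lower class of MM330 the 3 knockdowns lay above siNT_E2, by 0.22 (siER_E2), 0.35 (siFOXA1_E2) and 0.24 (siMDC1_E2), on 2 or 3 libraries a group.

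E2 lowered the mitochondrially encoded subunits and raised nuclear ones in HCC1428. In siNT_E2 against siNT, 12 of the 13 mitochondrially encoded members fell and 0 rose, where 54.8% of all genes tested were called and 25.7% fell, and their median log2 fold change was -0.39, against -0.03 over all genes. Of the 59 nuclear members 35 rose and 7 fell, where 29.1% of all genes rose, with a median of 0.21. MT-CO1 had 23048, 19850 and 19807 CPM in siNT_E2, against 27362, 27959 and 31689 CPM in siNT, a log2 fold change of -0.46 ± 0.05 (SE; edgeR's quasi-likelihood test, adjusted p = 7.1e-07). MT-CYB, the mitochondrially encoded subunit of complex III, changed most among the 13, with 9655, 7894 and 7809 CPM in siNT_E2 against 11250, 11717 and 13909 CPM in siNT (log2 fold change -0.52 ± 0.07, edgeR adjusted p = 4.9e-06). MT-ND6 fell too (log2 fold change -0.36 ± 0.08). The groups do not overlap at MT-CO1 or MT-CYB, and in both genes the siNT_E2 library nearest to siNT is the one of the higher pseudogene class.

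All 10 nuclear complex IV subunits rose with E2 in HCC1428, as did 19 of 37 complex I, 2 of 4 complex II and 4 of 8 complex III subunits. COX6C (chromosome 8, 99873200 to 99894062), a small complex IV subunit, had 349, 352 and 388 CPM in siNT_E2, against 193, 187 and 202 CPM in siNT, a log2 fold change of 0.92 ± 0.05 (edgeR, adjusted p = 6.6e-12). Every siNT_E2 library lies well above every siNT library at COX6C. NDUFA6 had 33.4, 35.5 and 37.4 CPM in siNT_E2 against 22.5, 23.0 and 23.6 CPM in siNT (log2 fold change 0.64 ± 0.05), and NDUFS8, which holds iron-sulfur clusters of complex I, had 99.5, 111 and 94.1 CPM against 76.1, 69.2 and 68.6 CPM (0.52 ± 0.05). SDHB, the iron-sulfur subunit of complex II, rose by 0.51 ± 0.09. Among members with at least 10 CPM, those that fell were led by NDUFB4, an accessory subunit of complex I, with 191, 192 and 198 CPM in siNT_E2 against 282, 270 and 263 CPM in siNT (log2 fold change -0.47 ± 0.04, edgeR adjusted p = 1.0e-08), followed by NDUFA5 (-0.33 ± 0.06) and UQCRB (-0.21 ± 0.05). NDUFA7 fell by more (-1.41 ± 0.45), at 0.22 to 0.241 CPM in siNT_E2 against 0.388 to 0.957 CPM in siNT, levels of few counts. NDUFB4 is thus a nuclear subunit whose groups separate in the direction of the mitochondrially encoded ones.

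**Figure D3:**
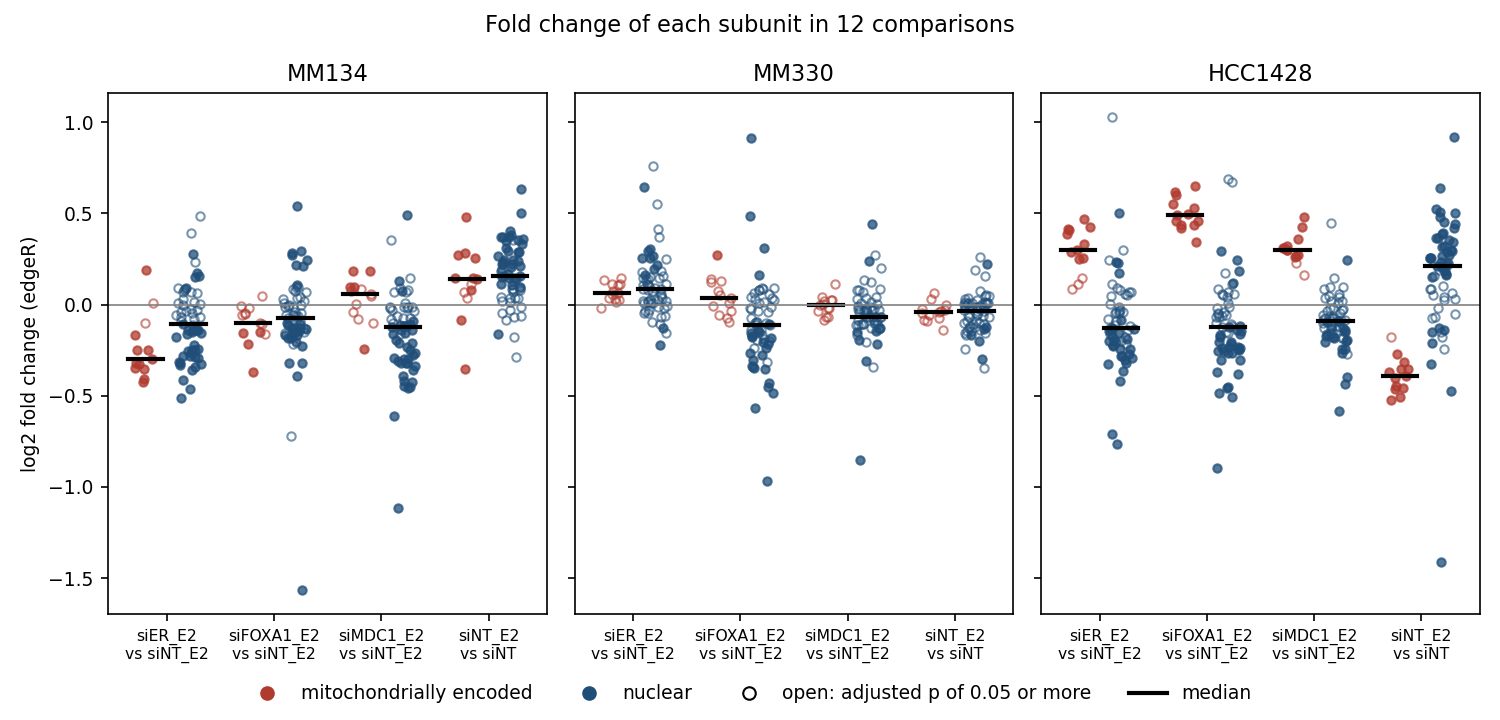
Log2 fold change of each member in the 12 comparisons within lines, mitochondrially encoded (red) and nuclear (blue) members side by side; filled points were called, open points were not, and bars are medians. In HCC1428 the mitochondrially encoded members lie between -0.52 and -0.18 for E2 and between 0.08 and 0.65 for the 3 knockdowns, apart from most nuclear members.

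SDHB rose and NDUFB4 fell with E2 in HCC1428, and NDUFC1 is the member that fell most after FOXA1 knockdown (below). The 250 bases before the RefSeq start of each are therefore shown (GRCh38.p14). These are SDHB at chr1:17054033-17054282 on the minus strand, NDUFB4 at chr3:120596086-120596335 on the plus strand and NDUFC1 at chr4:139301211-139301460 on the minus strand. Capitals mark letters of 3 motifs on either strand. GGTCA is the core of an estrogen response element, CCGGAAG is an ETS site and GCATGCG is the core of an NRF1 site. The principal transcript used for levels can start elsewhere. In SDHB it starts at 17054170, inside the window, so the last 138 bases shown lie within its span. They include the CCGGAAG at -128. In NDUFB4 the last 27 bases do too, and hold no capitals. The NDUFC1 transcript starts outside its window.
SDHB: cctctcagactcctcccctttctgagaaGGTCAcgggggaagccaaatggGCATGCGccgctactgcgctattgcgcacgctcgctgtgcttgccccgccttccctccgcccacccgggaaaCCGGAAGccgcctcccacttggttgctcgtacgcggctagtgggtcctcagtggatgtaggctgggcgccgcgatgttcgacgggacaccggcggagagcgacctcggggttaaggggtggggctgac
NDUFB4: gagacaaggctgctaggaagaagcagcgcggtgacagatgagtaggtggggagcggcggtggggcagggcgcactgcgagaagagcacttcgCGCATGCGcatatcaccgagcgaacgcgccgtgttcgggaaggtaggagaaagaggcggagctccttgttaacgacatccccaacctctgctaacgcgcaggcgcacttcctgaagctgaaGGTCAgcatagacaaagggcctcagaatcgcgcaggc
NDUFC1: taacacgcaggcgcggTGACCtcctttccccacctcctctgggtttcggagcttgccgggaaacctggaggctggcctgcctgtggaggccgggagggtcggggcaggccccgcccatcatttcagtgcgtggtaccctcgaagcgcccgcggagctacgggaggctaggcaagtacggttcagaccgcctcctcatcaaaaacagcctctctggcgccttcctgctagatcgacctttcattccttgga
These motifs and the forkhead motif TGTTTAC were searched on both strands in the 250 bases before the RefSeq start. The search covered the 50 nuclear members that matched the promoter table and all 35114 promoters. GGTCA was found in 18 of the 50 (36%) and in 32.7% of all promoters. CCGGAAG was found in 14 (28%) and in 8.52% of all promoters. GCATGCG was found in 9 (18%) and in 3.39% of all promoters. TGTTTAC was in 0 of the 50 windows and in 2.98% of all promoters. The matches of different motifs do not overlap in the 3 windows shown, while NDUFB4 holds GCATGCG on both strands in overlapping places. A match is a run of letters, not a measured binding site.

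In MM134, on TMM-scaled totals, E2 raised nuclear subunits without lowering most mitochondrially encoded ones. Of the nuclear members 35 rose and 1 fell, where 54.4% of all genes were called, 27.2% higher and 27.2% lower, with a median log2 fold change of 0.16 (all genes -0.03). The size of that median depends on the scaling, since the log2 TMM factor of siNT_E2 was lower by 0.109 than that of siNT. The unscaled nuclear share had means of 0.469% in siNT_E2 and 0.455% in siNT, higher without overlap. NDUFS8 had 48.7, 47.1 and 46.8 CPM in siNT_E2, against 29.3, 30.3 and 31.7 CPM in siNT, a log2 fold change of 0.63 ± 0.05 (edgeR, adjusted p = 1.3e-10). NDUFB2 had 85.2, 87.9 and 87.7 CPM in siNT_E2 against 61.9, 60.9 and 60.1 CPM in siNT (0.50 ± 0.04), and SDHB 49.2, 51.0 and 49.5 CPM against 39.4, 37.2 and 35.7 CPM (0.40 ± 0.05). None of these 3 genes overlaps between the groups. The 1 nuclear member that fell was NDUFB5 (-0.16 ± 0.04). By complex, 21 of 37 complex I, 1 of 4 complex II, 6 of 8 complex III and 7 of 10 complex IV nuclear subunits rose.

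The mitochondrially encoded members of MM134 were split under E2, with 8 higher and 2 lower. MT-ND6 had 184, 197 and 206 CPM in siNT_E2 against 156, 131 and 131 CPM in siNT (log2 fold change 0.48 ± 0.08, edgeR adjusted p = 1.4e-05). MT-ND5 had 5361, 5555 and 5074 CPM against 6646, 6744 and 6913 CPM (-0.36 ± 0.05), and MT-CO1 changed by -0.09 ± 0.03, a call lost without siNT_E2 replicate 3 (edgeR adjusted p = 0.163) or siNT replicate 3 (0.111). Both MT-ND6 and MT-ND5 keep their groups apart, in opposite directions. These directions depend on the scaling: the log2 TMM factor of siNT_E2 was lower by 0.109 than that of siNT, and on unscaled totals the mitochondrially encoded share was 8.27%, 8.46% and 7.92% in siNT_E2, against 8.59%, 8.60% and 8.83% in siNT, all lower.

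Few members moved with E2 in MM330. No mitochondrially encoded member was called either way by edgeR's quasi-likelihood test, 1 nuclear member rose and 5 fell, where 26.3% of all genes were called (13.7% higher, 12.6% lower), so that the module lies below the background of that comparison. NDUFB11, an accessory subunit of complex I, was the 1 that rose, with 46.8, 53.4 and 45.9 CPM in siNT_E2 against 44.3, 39.4 and 43.5 CPM in siNT (log2 fold change 0.22 ± 0.06, edgeR adjusted p = 0.017). It is also the only member called in the same direction under E2 in all 3 lines, 1 of 72 (1.39%) where 14.9% of genes tested in every line were. The largest called fall was that of UQCRC2, a core subunit of complex III, with a log2 fold change of -0.30 ± 0.04. The count of 6 nuclear members was 2 without siNT_E2 replicate 1 or 2 and 3 without any 1 siNT library, and the call of NDUFB11 was lost without siNT_E2 replicate 2 (edgeR adjusted p = 0.109) or siNT replicate 2 (0.0876).

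Tested directly, the called differences from HCC1428 in the response to E2 were mainly mitochondrially encoded members for MM134 and nuclear members for MM330. By size, all 13 mitochondrially encoded members had a positive difference in both lines, with medians of 0.57 for MM134 and 0.35 for MM330. The nuclear medians were 0.003 and -0.20. In MM134 minus HCC1428 the change was higher for 11 of 13 mitochondrially encoded members and lower for 0, and for nuclear members 5 and 4, where 26.5% of all genes were called (12.2% higher, 14.3% lower). In MM330 minus HCC1428 it was higher for 4 mitochondrially encoded members, and lower for 27 of 59 nuclear members, where 28.3% of all genes were called (11.8% higher, 16.5% lower). COX6C had the lowest difference in both, -0.74 ± 0.08 in MM134 and -0.92 ± 0.08 in MM330. The difference at MT-CYB was 0.82 ± 0.14 for MM134 and 0.43 ± 0.14 for MM330, whose call was lost without 1 of 4 libraries (HCC1428 siNT replicate 3, HCC1428 siNT_E2 replicate 3 or 4, or MM330 siNT_E2 replicate 1; edgeR adjusted p = 0.0502 to 0.0788).

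Knockdown of ER raised mitochondrially encoded and lowered nuclear members in HCC1428, in a comparison that shares the siNT_E2 libraries with that of E2. Of the mitochondrially encoded members 10 were higher in siER_E2 than in siNT_E2 and 0 lower, and of the nuclear members 4 were higher and 26 lower, where 51.2% of all genes were called, 22.5% higher and 28.7% lower. MT-CO1 had 29954, 27753 and 27578 CPM in siER_E2, against 23048, 19850 and 19807 CPM in siNT_E2 (log2 fold change 0.41 ± 0.05, edgeR adjusted p = 3.1e-06). MT-ND1 changed most, by 0.47 ± 0.10, while MT-ND6 was not called (0.08 ± 0.09, adjusted p = 0.44). COX6C had 223, 219 and 214 CPM in siER_E2 against 349, 352 and 388 CPM in siNT_E2 (-0.76 ± 0.05), and SDHB 62.7, 67.5 and 74.7 CPM against 92.9, 117 and 118 CPM (-0.71 ± 0.09). NDUFB4 had 293, 272 and 277 CPM in siER_E2 against 191, 192 and 198 CPM in siNT_E2 (0.50 ± 0.04, edgeR adjusted p = 5.4e-09). MT-CO1, COX6C, SDHB and NDUFB4 all separate the groups completely, and for MT-CO1 and NDUFB4 the siER_E2 values lie within or next to the range of siNT given above.

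In MM134 the same knockdown lowered both kinds of subunit on TMM-scaled totals. In siER_E2 against siNT_E2, 1 mitochondrially encoded member was higher and 10 lower, and 5 nuclear members were higher and 29 lower, where 57.2% of all genes were called, 29.3% higher and 27.9% lower. MT-ND4L, a small membrane subunit of complex I, had 1086, 992 and 871 CPM in siER_E2, against 1429, 1355 and 1232 CPM in siNT_E2 (log2 fold change -0.42 ± 0.07, edgeR adjusted p = 4.4e-05). MT-CO1 was not called (0.01 ± 0.03), and MT-ND5 was the 1 that rose (0.19 ± 0.05). NDUFB2 (-0.51 ± 0.04), NDUFS8 (-0.47 ± 0.05) and NDUFS5 (-0.41 ± 0.04) fell most, and NDUFB5 rose by 0.28 ± 0.04. Here too the scaling counts: the log2 TMM factor of siER_E2 was higher by 0.1075 than that of siNT_E2, and the unscaled mitochondrially encoded share overlapped, at 8.39%, 7.54% and 7.93% in siER_E2 and 8.27%, 8.46% and 7.92% in siNT_E2. The median log2 fold change of the nuclear members, -0.11, was about the size of that scaling difference. Their unscaled share overlapped as well, with means of 0.476% in siER_E2 and 0.469% in siNT_E2.

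In MM330 ER knockdown left the mitochondrially encoded members uncalled in both directions by edgeR's quasi-likelihood test. Of the nuclear members 9 rose and 2 fell, where 32.5% of all genes were called, 15.1% higher and 17.4% lower. UQCR10, a small subunit of complex III, had 69.8, 74.7 and 64.6 CPM in siER_E2 against 41.5, 46.8 and 45.1 CPM in siNT_E2 (log2 fold change 0.65 ± 0.07, edgeR adjusted p = 1.6e-06). NDUFA4 (0.30 ± 0.06) and NDUFV1 (0.29 ± 0.07) followed, and NDUFS5 (-0.22 ± 0.07) and NDUFB4 (-0.13 ± 0.05) fell. The nuclear count of 11 was 7 without siER_E2 replicate 3 or siNT_E2 replicate 3, and the calls of NDUFS5 and NDUFB4 were lost without siER_E2 replicate 1 or 3 or siNT_E2 replicate 2 or 3 (edgeR adjusted p = 0.0509 to 0.133 and 0.109 to 0.173). In MM134 minus HCC1428 the response to ER knockdown was lower for 12 of 13 mitochondrially encoded members, with 24.5% of all genes called and 12.1% lower. In MM330 minus HCC1428 it was lower for 2 of them and higher for 19 of 59 nuclear members, where 25.3% were called and 13% were higher. ESR1 itself fell less in HCC1428 than in either lobular line, as given above, and the part of this in these differences was not tested.

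Against siNT_E2, knockdown of FOXA1 raised every mitochondrially encoded member in HCC1428. All 13 were higher in siFOXA1_E2 than in siNT_E2, where 53.6% of all genes were called and 24.1% rose, with log2 fold changes of 0.34 to 0.65 and a median of 0.49 (all genes -0.03). MT-ND5 had 11271, 11773 and 12585 CPM in siFOXA1_E2 against 8720, 6736 and 6713 CPM in siNT_E2 (0.65 ± 0.09, edgeR adjusted p = 6.3e-06), and MT-CO1 had 31172, 31377 and 31600 CPM against 23048, 19850 and 19807 CPM (0.55 ± 0.05). MT-ND6, on the opposite strand, rose as well, with 271, 284 and 328 CPM against 231, 216 and 197 CPM (0.42 ± 0.08). All 13 genes keep the groups apart. The siNT_E2 libraries are again those of the E2 and ER comparisons. The mitochondrially encoded share was 16.4% in siFOXA1_E2 and 16.1% in siNT, against 11.9% in siNT_E2, so these comparisons are not separate evidence. Of the nuclear members 4 rose and 29 fell, where 29.5% of all genes fell, led by NDUFC1, NDUFB6 (-0.51 ± 0.08) and NDUFS3 (-0.49 ± 0.06).

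In the lobular lines FOXA1 knockdown left the mitochondrially encoded members mostly uncalled. In MM134 0 rose and 4 fell, with 8 nuclear members higher and 22 lower, where 56.3% of all genes were called (27.9% higher, 28.5% lower), and the 4 became 7 without siNT_E2 replicate 3. In MM330 1 rose (MT-CO1, 0.27 ± 0.09, edgeR adjusted p = 0.021) and 0 fell, with 4 nuclear members higher and 21 lower, where 49% were called (24.4% higher, 24.6% lower). The MM330 siFOXA1_E2 libraries at MT-CO1 were spread, with 25487, 29833 and 31692 CPM against 26147, 23480 and 22242 CPM in siNT_E2, and the groups overlap. That call was lost without siFOXA1_E2 replicate 2 or 3 or siNT_E2 replicate 2 or 3 (edgeR adjusted p = 0.055 to 0.109). The change differed from that of HCC1428 in all 13 members for MM134 (30.5% of all genes called, 16.8% higher and 13.7% lower) and 12 for MM330 (22.2%, 11.8% and 10.4%), each lower. The difference at MT-ND4L was -0.87 ± 0.17 for MM134 and -0.56 ± 0.17 for MM330, whose call was lost without MM330 siFOXA1_E2 replicate 1 (edgeR adjusted p = 0.0514).

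NDUFC1 (chromosome 4, 139266880 to 139302551), a small accessory subunit of complex I, fell most of all members after FOXA1 knockdown in every line. It had 16.9, 17.4 and 17.9 CPM in siFOXA1_E2 against 49.9, 51.0 and 55.0 CPM in siNT_E2 of MM134, a log2 fold change of -1.57 ± 0.07 (edgeR, adjusted p = 6.7e-15). In MM330 it had 41.6, 32.1 and 31.9 CPM against 62.6, 71.7 and 71.2 CPM (-0.96 ± 0.09), and in HCC1428 23.9, 24.4 and 23.8 CPM against 42.1, 44.4 and 44.6 CPM (-0.90 ± 0.06). The groups are far apart in all 3 lines, and NDUFC1 was not called after E2, ER or MDC1 knockdown in any line. In MM134 NDUFV1 rose most, with 830, 854 and 868 CPM in siFOXA1_E2 against 581, 603 and 581 CPM in siNT_E2 (0.54 ± 0.03, edgeR adjusted p = 6.5e-13). In MM330 COX5A (-0.57 ± 0.06) and COX8A (-0.49 ± 0.08) came next among those that fell. Across the lines 10 of the 72 members (13.9%) moved the same way after FOXA1 knockdown, a smaller share than the 25.1% of genes tested in every line: NDUFV1 and UQCR10 were higher, and NDUFC1, NDUFB9, NDUFB11, NDUFA12, NDUFS5, NDUFS6, UQCRQ and COX7A2 lower.

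Knockdown of MDC1 raised mitochondrially encoded and lowered nuclear members in HCC1428, and lowered nuclear members in MM134. In HCC1428 11 mitochondrially encoded members rose and 0 fell, and 1 nuclear member rose and 19 fell, where 29.1% of all genes were called (13.2% higher, 15.9% lower). MT-ND6 changed most, with 324, 301 and 278 CPM in siMDC1_E2 against 231, 216 and 197 CPM in siNT_E2 (log2 fold change 0.48 ± 0.08, edgeR adjusted p = 0.00027), and MT-CO1 had 25778, 26946 and 24847 CPM against 23048, 19850 and 19807 CPM (0.30 ± 0.05). Both genes keep the groups apart. The same siNT_E2 libraries serve here too, with a mitochondrially encoded share of 11.9%, against 14.6% in siMDC1_E2 and 16.1% in siNT. In MM134 4 mitochondrially encoded members rose and 1 fell, and 3 nuclear members rose and 35 fell, where 50.3% of all genes were called (25.4% higher, 25% lower). Of those 35, 22 were complex I and 5 each complex III and complex IV subunits. The 4 mitochondrially encoded members that rose in MM134 stand near the share of all genes that rose. The median log2 fold change over the 13 was 0.06, and their unscaled share overlapped between the groups. In MM330 no mitochondrially encoded member was called in either direction by edgeR's quasi-likelihood test, and 2 nuclear members rose and 7 fell, where 20.8% were called (10.4% higher, 10.4% lower).

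The counts after MDC1 knockdown leaned on single libraries. In HCC1428 the nuclear count of 20 was 9 without siMDC1_E2 replicate 1, 11 without siMDC1_E2 replicate 3 and 10 without siNT_E2 replicate 3 or 4, and the mitochondrially encoded count of 11 was 7 without siMDC1_E2 replicate 2 or siNT_E2 replicate 3. In MM134 the mitochondrially encoded count of 5 was 3 without siMDC1_E2 replicate 1 or 2 or siNT_E2 replicate 3, and 2 without siNT_E2 replicate 1. In MM330 the nuclear count of 9 was 5 without siMDC1_E2 replicate 2 or 3 and 4 without siNT_E2 replicate 3. The 38 nuclear calls of MM134 did not move by more than 1.5 times without any 1 library.

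NDUFA5 (chromosome 7, 123536997 to 123558255), an accessory subunit in the peripheral arm of complex I, fell in every line after MDC1 knockdown. It had 34.4, 32.1 and 32.6 CPM in siMDC1_E2 against 74.1, 69.3 and 68.8 CPM in siNT_E2 of MM134 (log2 fold change -1.11 ± 0.06, edgeR adjusted p = 2.8e-13). In MM330 it had 23.5, 24.6 and 22 CPM against 42.2, 42.7 and 41.4 CPM (-0.85 ± 0.06), and in HCC1428 33.5, 35.7 and 36.2 CPM against 48.2, 45.9 and 47.4 CPM (-0.44 ± 0.06). No libraries overlap, and NDUFA5 was not called after ER or FOXA1 knockdown in any line. The fall was larger in MM134 than in HCC1428 by -0.67 ± 0.09 and in MM330 by -0.42 ± 0.10 (edgeR, adjusted p = 3.2e-07 and 0.0015), in contrasts that called 18.6% and 13.8% of all genes (7.69% and 6.28% lower). COX6C fell in all 3 lines too, to 50, 44.4 and 47.1 CPM in siMDC1_E2 of MM134, against 72.1, 72.9 and 69.4 CPM in siNT_E2 (-0.61 ± 0.04), by -0.31 ± 0.06 in MM330 and by -0.58 ± 0.05 in HCC1428. With COX6B1 and COX7A2 lower and UQCR10 higher, 5 of 72 members (6.94%) moved the same way in all lines after MDC1 knockdown, against 8.56% of genes tested in every line. COX7A2 lost its call in MM330 without siMDC1_E2 replicate 2 (edgeR adjusted p = 0.0517) or siNT_E2 replicate 3 (0.0658).

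**Figure D4:**
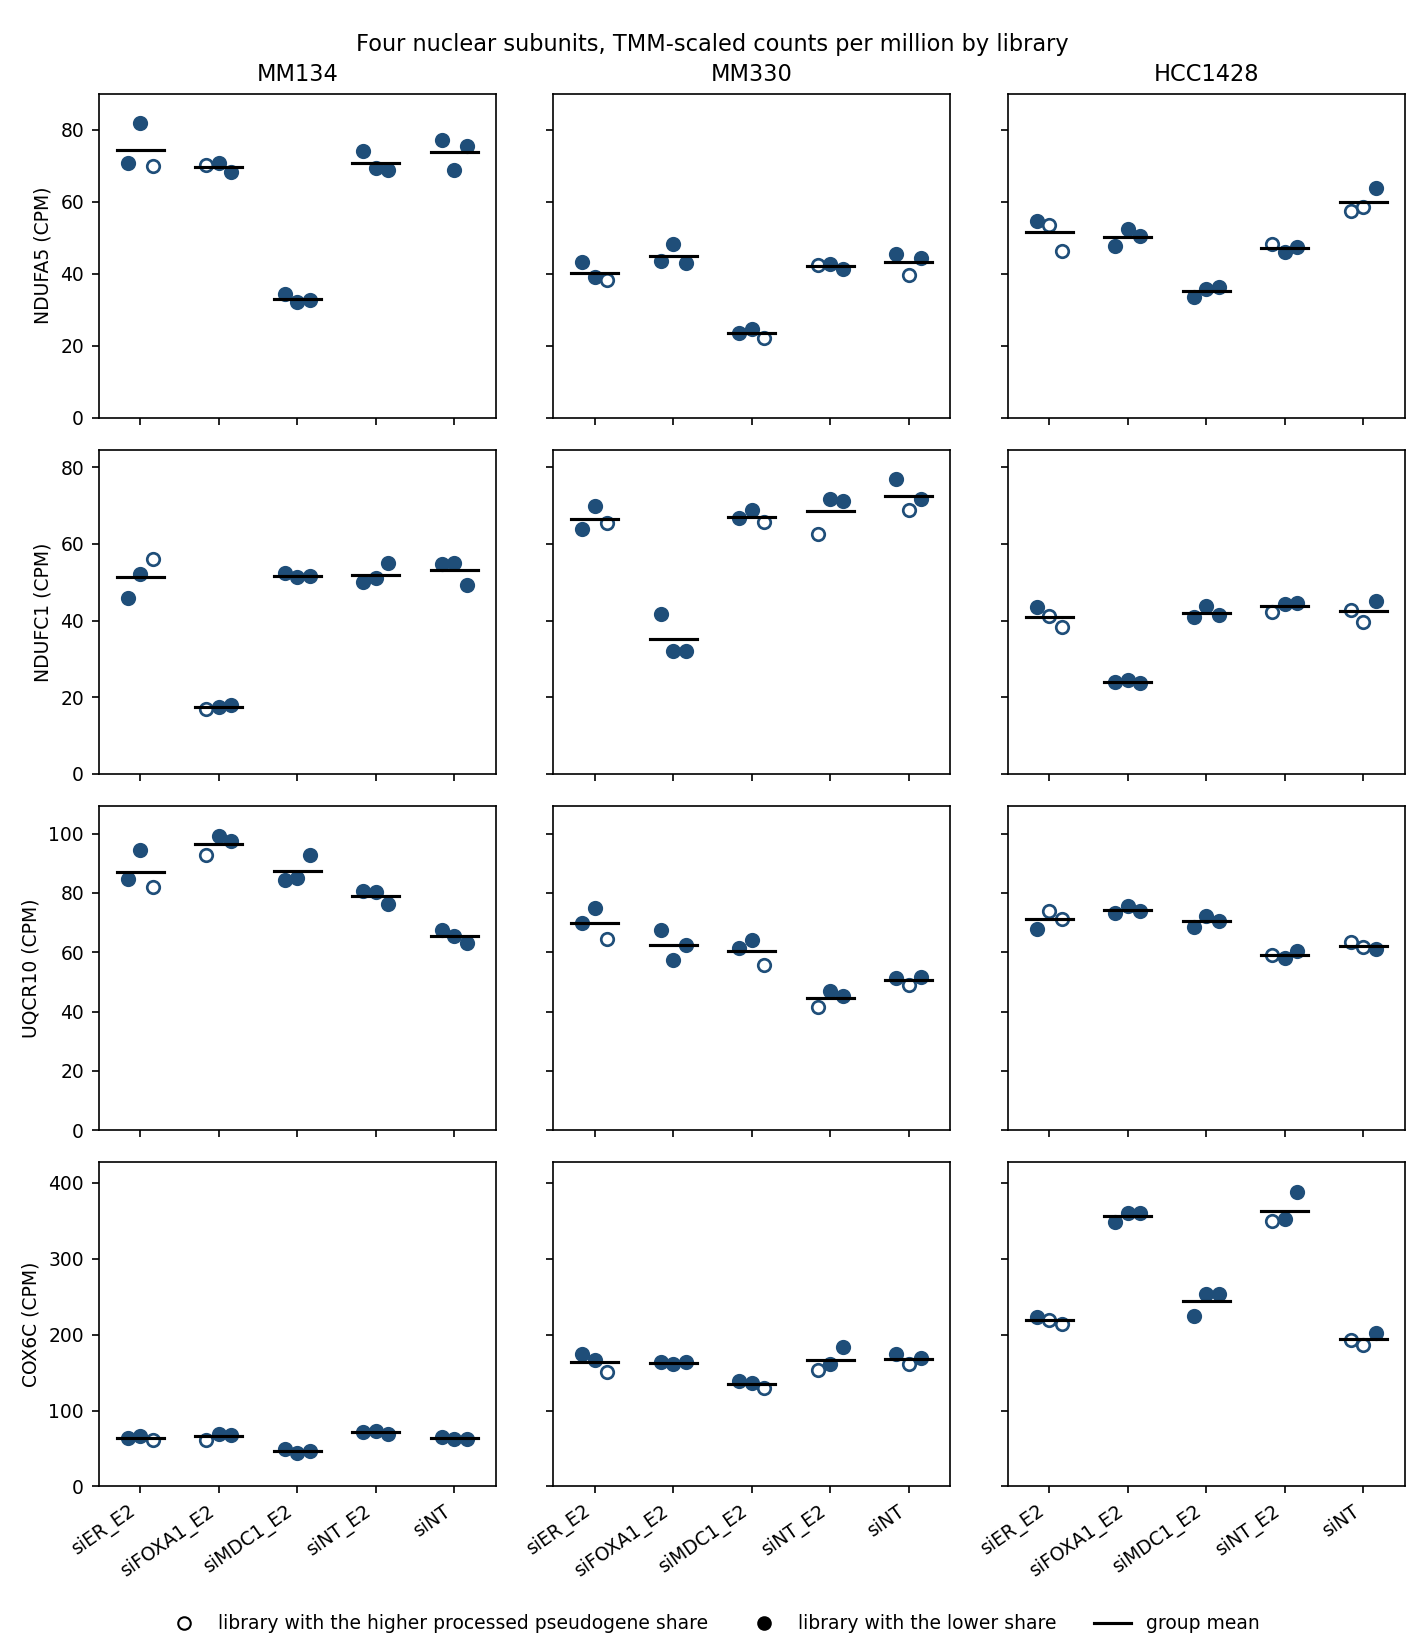
CPM by library of NDUFA5, NDUFC1, UQCR10 and COX6C in the 5 groups of each line; points are libraries and bars group means. NDUFA5 is lowest in siMDC1_E2 and NDUFC1 in siFOXA1_E2 in every line, UQCR10 is lower in siNT_E2 than in the 3 knockdowns, and COX6C in HCC1428 is high in siNT_E2 and siFOXA1_E2.

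UQCR10 (chromosome 22, 29767369 to 29770413) rose after each of the 3 knockdowns in each of the 3 lines, 9 of 9 comparisons, which share the siNT_E2 libraries of their line. In HCC1428 it had 68, 73.9 and 71.2 CPM in siER_E2, 73.3, 75.6 and 73.7 CPM in siFOXA1_E2 and 68.4, 72.3 and 70.7 CPM in siMDC1_E2, against 59.1, 58.1 and 60.3 CPM in siNT_E2. In MM134 it had 84.7, 94.3 and 82.1 CPM, 92.9, 99.3 and 97.6 CPM and 84.4, 85.0 and 92.6 CPM in these knockdowns, against 80.6, 80.2 and 76.4 CPM. Every knockdown library lies above every siNT_E2 library in these lines and in MM330. The log2 fold changes were 0.16 ± 0.04, 0.30 ± 0.04 and 0.13 ± 0.04 in MM134, 0.65 ± 0.07, 0.49 ± 0.07 and 0.44 ± 0.07 in MM330 and 0.23 ± 0.04, 0.29 ± 0.04 and 0.24 ± 0.04 in HCC1428. E2 moved it in MM134 (0.26 ± 0.05), but not past the threshold in MM330 (-0.17 ± 0.07) or HCC1428 (-0.05 ± 0.04). After ER knockdown UQCR10 and NDUFS5, a complex I subunit that fell, were the only 2 of 72 members (2.78%) to move the same way in all lines, where 17.7% of genes tested in every line did. In MM134 the call of UQCR10 was lost for ER knockdown without siER_E2 replicate 2 (edgeR adjusted p = 0.0506), and for MDC1 knockdown without siMDC1_E2 replicate 3 (0.117) or siNT_E2 replicate 3 (0.0957).

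In none of the 12 comparisons were the 4 complex II subunits all called in the same direction. After MDC1 knockdown in MM134 SDHA, the flavoprotein (-0.42 ± 0.12), SDHB and SDHC, a membrane anchor (-0.12 ± 0.05), fell and SDHD, the other anchor, was not called (-0.16 ± 0.10). After ER knockdown in MM134 SDHA (-0.33 ± 0.12), SDHB and SDHD fell and SDHC rose (0.15 ± 0.04). In HCC1428 SDHA was called with SDHB, higher with E2 (0.39 ± 0.11) and lower after FOXA1 knockdown (-0.45 ± 0.11). SDHA had 9.51, 9.53 and 10.8 CPM in siNT_E2 against 8.49, 7.99 and 6.62 CPM in siNT of HCC1428, low levels whose groups do not overlap. SDHB is described above for HCC1428, where it rose with E2 and fell after ER and FOXA1 knockdown, and in MM134, where it rose with E2 and fell after ER (-0.29 ± 0.05), FOXA1 (-0.16 ± 0.04) and MDC1 (-0.32 ± 0.05) knockdown. In MM330 SDHB had 53.9, 53.4 and 53.4 CPM in siER_E2, 52.2, 47.5 and 49.0 CPM in siFOXA1_E2 and 58.5, 54.9 and 55.3 CPM in siMDC1_E2, against 48.4, 55.1 and 56.0 CPM in siNT_E2, and was called in none of the 4 comparisons. SDHC fell with E2 in HCC1428 (-0.15 ± 0.04) and MM330 (-0.17 ± 0.06), with 140, 140 and 152 CPM in siNT_E2 against 156, 163 and 166 CPM in siNT of HCC1428. SDHC was thus lower with E2 where SDHA and SDHB were higher in HCC1428. SDHA ranged from 6.16 to 12.1 CPM over all libraries. SDHD ranged from 6.27 to 20.8 CPM and was called in 1 of the 12 comparisons, ER knockdown in MM134 (-0.28 ± 0.10). The SDHA call was lost for ER knockdown in MM134 without siER_E2 replicate 1 or 2 or siNT_E2 replicate 1 or 2 (edgeR adjusted p = 0.0589 to 0.113), and with E2 in HCC1428 without siNT_E2 replicate 4 (0.0572). The SDHC call for MDC1 knockdown in MM134 was lost without siMDC1_E2 replicate 2 or any 1 siNT_E2 library (edgeR adjusted p = 0.05 to 0.223). The SDHC call with E2 in MM330 was lost without any 1 siNT library or siNT_E2 replicate 1 or 2 (edgeR adjusted p = 0.0777 to 0.12), and the SDHD call in MM134 without siER_E2 replicate 3 (0.0819) or siNT_E2 replicate 1 (0.0657).

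The 18 nuclear subunits of ATP synthase, outside the 72, rose with E2 in MM134 and HCC1428, 14 higher and 0 lower in each, where 27.2% and 29.1% of all genes rose. In MM330 0 rose and 2 fell with E2, where 13.7% of all genes rose and 12.6% fell. After ER knockdown 1 rose and 10 fell in MM134, 6 rose and 1 fell in MM330 and 0 rose and 12 fell in HCC1428, where 27.9%, 17.4% and 28.7% of all genes fell and 15.1% rose in MM330. After MDC1 knockdown 0 rose and 9 fell in MM134, 2 rose and 0 fell in MM330 and 0 rose and 12 fell in HCC1428. Of all genes 25%, 10.4% and 15.9% fell, and 10.4% rose in MM330. ATP5F1A, a catalytic-head subunit, and ATP5MC3, of the proton-driven ring, rose by 0.49 and 0.46 in HCC1428 and by 0.30 and 0.41 in MM134. FOXA1 knockdown gave 5 higher and 3 lower in MM134, 2 and 3 in MM330 and 1 and 7 in HCC1428. Of all genes 27.9%, 24.4% and 24.1% were higher and 28.5%, 24.6% and 29.5% lower, so the 5 in MM134 stand near the background.

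Genes that copy, transcribe and process mitochondrial DNA and RNA (31 tested) gave 18 higher and 1 lower with E2 in MM134, 2 and 2 in MM330 and 12 and 6 in HCC1428, where 27.2%, 13.7% and 29.1% of all genes rose. The count in MM134 lies above that background, and those in HCC1428 and MM330 lie nearer to it or below it. After ER, FOXA1 and MDC1 knockdown 18, 18 and 16 fell in MM134, where 27.9%, 28.5% and 25% of all genes fell. In the same order 4, 3 and 3 rose. In MM330 3, 5 and 1 fell and 6, 4 and 4 rose. Of all genes 17.4%, 24.6% and 10.4% fell there and 15.1%, 24.4% and 10.4% rose. In HCC1428 12, 8 and 1 fell and 5, 3 and 4 rose. Of all genes 28.7%, 29.5% and 15.9% fell there and 22.5%, 24.1% and 13.2% rose. POLG, the mitochondrial DNA polymerase, rose by 0.46 in MM134, 0.13 in MM330 and 0.61 in HCC1428. LRPPRC, which stabilises mitochondrial messenger RNA, rose by 0.42 in MM134 and 0.16 in HCC1428. TFAM, which packages mitochondrial DNA and starts its transcription, fell after FOXA1 knockdown by 0.83, 0.75 and 0.92 on the log2 scale in MM134, MM330 and HCC1428. In HCC1428 TFAM thus fell where the 13 mitochondrially encoded messenger RNAs rose. The ribosomal RNA MT-RNR2, from the same genome, fell with E2 in each line, by 0.61, 0.25 and 0.55 in the same order, and rose after every knockdown by 0.31 to 0.60.

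Assembly factors (45 tested in MM134 and HCC1428, 46 in MM330) gave 18 higher and 2 lower with E2 in MM134, 5 and 4 in MM330 and 16 and 7 in HCC1428, where 27.2%, 13.7% and 29.1% of all genes rose, so that the counts in MM330 and HCC1428 stand near the background. CMC2, a complex IV assembly factor, rose by 1.38 with E2 in HCC1428 and fell by 1.11, 1.09 and 0.54 after ER, FOXA1 and MDC1 knockdown. TTC19, which acts on complex III, rose after every knockdown in every line, by 0.40 to 0.89, and was not called with E2. Among the nuclear regulators MYC rose with E2 by 2.69 in MM134 and 5.46 in MM330 and was not called in HCC1428 (0.02), and PPRC1, a coactivator of NRF1, rose by 0.75 in MM134 and 0.76 in HCC1428.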

How the data were processed

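The authors deposited 1 table of whole-number read counts per gene symbol for 45 libraries, not normalised. Per the labels' protocols, RNA was extracted with RNeasy, made into libraries with Illumina Stranded mRNA Prep and sequenced as paired reads. Per the submitters' processing notes, STAR 2.6.0a, limma and hg38 (GRCh38) were used; the counting tool, its annotation and its strand setting are not given in the sources used here. Columns were matched to samples by title.

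Members and gene lists were chosen with earlier results of these data known. Counts were filtered with filterByExpr by group, scaled by TMM and fitted with edgeR 4.0.16 (R 4.3.3, limma 3.58.1): 1 fit per line for the 12 comparisons, and 1 fit of all 45 libraries for the 8 differences between lines and the comparisons of siNT. Benjamini-Hochberg adjustment covered all genes tested, and a member was called at an adjusted p below 0.05. Levels are CPM on TMM-scaled totals, per kilobase of the principal transcript (GENCODE 29) where genes are compared. Shares use unscaled totals. The fit was tested on simulated data.

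Genes named are MT-CO1, MT-ND6 and the mitochondrially encoded member with the largest change, the 3 highest and 3 lowest called nuclear members with at least 10 CPM in either group, the SDH genes, the 2 highest and 2 lowest called members between lines, and the members of each list with the smallest p. Other genes named, such as NDUFB11 in MM134 or TTC19, were picked with their values already known. Alternatives were RLE scaling, no filter, a replicate block, DESeq2 1.42.0, a library class term, libraries of the lower pseudogene class only, totals without mitochondrially encoded genes, and leaving out each library. No 2 libraries of a group agreed within sampling noise.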

Additional observations from a re-analysis of the deposited data

Results flagged for a closer look

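The results here are members whose response differed between a lobular line and HCC1428 in a direct test of that difference (edgeR's quasi-likelihood test on all 45 libraries, Benjamini-Hochberg adjusted p below 0.05 over all genes), given as the lobular line's log2 fold change minus that of HCC1428. HCC1428 is the only ductal line, so a difference is between lines. The HCC1428 groups siER_E2, siNT_E2 and siNT hold libraries of both pseudogene classes, and the part of the class was not tested beyond the fits with a class term and without the higher class.

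For E2, MM134 minus HCC1428 was 0.86 for MT-ND6, 0.82 for MT-CYB, -0.74 for COX6C and -0.33 for COX8A, the last lost without MM134 siNT replicate 2 or 3 or HCC1428 siNT replicate 3 (edgeR adjusted p = 0.052 to 0.133). MT-ND6 and MT-CYB rose in MM134 and fell in HCC1428, while COX6C rose in both lines, by 0.15 in MM134 and 0.92 in HCC1428. MM330 minus HCC1428 was 0.47 for NDUFB4, 0.43 for MT-CYB, -0.92 for COX6C and -0.67 for NDUFA6, none of which was called within MM330. The MT-CYB difference in MM330 was lost without HCC1428 siNT replicate 3, HCC1428 siNT_E2 replicate 3 or 4, or MM330 siNT_E2 replicate 1 (edgeR adjusted p = 0.0502 to 0.0788).

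For ER knockdown, MM134 minus HCC1428 was 0.57 for COX6C, 0.37 for SDHB, -0.89 for MT-CYB and -0.81 for NDUFB4. MT-CYB and NDUFB4 fell in MM134 and rose in HCC1428. MM330 minus HCC1428 was 0.71 for COX6C, 0.69 for SDHB, -0.66 for NDUFB4 and -0.45 for MT-CO3. The knockdown of ESR1 was weaker in HCC1428 than in both lobular lines, and its part in these differences was not tested.

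For FOXA1 knockdown, MM134 minus HCC1428 was 0.45 for COX8A, 0.45 for NDUFB6, -0.87 for MT-ND4L and -0.75 for MT-ND4. MT-ND4L fell in MM134 and rose in HCC1428. MM330 minus HCC1428 was 0.49 for NDUFS3, 0.38 for NDUFB6, -0.58 for MT-ND4 and -0.56 for MT-ND4L. The MT-ND4L difference in MM330 was lost without siFOXA1_E2 replicate 1 of MM330 (edgeR adjusted p = 0.0514). The NDUFB6 call in MM330 was lost without HCC1428 siNT_E2 replicate 4 (edgeR adjusted p = 0.0553). COX8A shares 55.1% of its coding bases with another gene.

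For MDC1 knockdown, MM134 minus HCC1428 was 0.38 for COX8A, -0.67 for NDUFA5 and -0.57 for MT-ND6, and MM330 minus HCC1428 was 0.29 for NDUFV1, 0.27 for COX6C, -0.50 for MT-ND6 and -0.42 for NDUFA5. NDUFA5 fell in each of the 3 lines, and the differences are in size. The MT-ND6 difference was lost in MM134 without siMDC1_E2 replicate 3 (edgeR adjusted p = 0.0534), and in MM330 without siMDC1_E2 replicate 3 or siNT_E2 replicate 1 or 3 of MM330 or siMDC1_E2 replicate 1 or 2 or siNT_E2 replicate 3 or 4 of HCC1428 (0.0629 to 0.172). The COX6C difference in MM330 was lost without siMDC1_E2 replicate 1 or siNT_E2 replicate 1 of MM330 or siMDC1_E2 replicate 1 or siNT_E2 replicate 4 of HCC1428 (0.0526 to 0.0877).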

How the results depend on the processing

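No called fold change of a named member turned its sign under an alternative. Uncalled values did: the log2 share ratio in MM330 ranged over single libraries left out from -0.1505 to 0.1187 for ER knockdown and from -0.1398 to 0.04222 for E2, and the mitochondrially encoded share of MM330 after MDC1 knockdown less that in siNT_E2 was -0.108 percentage points over all libraries and 0.863 in the lower pseudogene class. In MM134 the mitochondrially encoded members were mostly higher with E2 on TMM totals while their unscaled share was lower. Of the counts of members called, those that moved by more than 1.5 times are given here, and the cause was not tested. With RLE scaling, 3 mitochondrially encoded members were called after MDC1 knockdown in MM134 in place of 5, and the members that differed from HCC1428 after MDC1 knockdown were 17 in MM134 in place of 11 and 8 in MM330 in place of 5; for differences between lines this scaling was chosen after seeing the data. With no filter on low counts, 7 mitochondrially encoded members were called after FOXA1 knockdown in MM134 in place of 4, and the MDC1 differences were 21 (MM134) and 16 (MM330). With a term for the pseudogene class the FOXA1 count in MM134 was also 7, and DESeq2 gave 3 for MDC1 knockdown in MM134.

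Over libraries of the lower pseudogene class alone, the FOXA1 count in MM134 was 7. In MM330 the counts were 1 nuclear member with E2 in place of 6, 3 mitochondrially encoded (all higher) in place of 0 and 7 nuclear in place of 11 after ER knockdown, and 4 nuclear in place of 9 after MDC1 knockdown. The differences from HCC1428 were 13 in place of 23 for ER knockdown in MM330, and 21 (MM134) and 2 (MM330) for MDC1 knockdown. The log2 share ratio differed by 0.2366 after MDC1 knockdown in MM330, -0.9051 with E2 in HCC1428 and 0.6761 after ER knockdown in HCC1428. Both HCC1428 gaps were smaller among higher-class libraries, as given above. In the lower class the mitochondrially encoded and nuclear shares were 16.3% and 0.4736% in siER_E2 and 17.68% and 0.4383% in siNT of HCC1428. As a difference of mean log2 CPM, the ratio changed by -0.04367 with E2 and -0.03503 after FOXA1 knockdown in MM134.

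With the replicate number as a block, 7 nuclear members were called after MDC1 knockdown in HCC1428 in place of 20, and 2 differed between MM330 and HCC1428 after MDC1 knockdown. The numbers were not shown to pair the libraries: in no comparison with 3 pairs did every pair correlate above 0.1, and only E2 in HCC1428, with 2 shared numbers, had both above it (0.431 and 0.492). The block moved no other count of calls by more than 1.5 times.

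Leaving out 1 library at a time gave 3 to 7 mitochondrially encoded calls for FOXA1 and 2 to 6 for MDC1 knockdown in MM134. In MM330 it gave 2 to 8 nuclear calls for E2, 7 to 12 for ER and 4 to 7 for MDC1 knockdown, and 0 to 1 mitochondrially encoded calls for FOXA1 knockdown. In HCC1428 MDC1 knockdown gave 7 to 12 mitochondrially encoded and 9 to 24 nuclear calls, and its difference between MM330 and HCC1428 3 to 14. Each count has 3 libraries a group behind it, and MM330 gave the fewest calls.

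Calls of named members and line differences were lost for 11 of 134 in the lower pseudogene class alone (NDUFB11, NDUFS7 and SDHC for E2, NDUFB4 for ER, NDUFA10 and SDHC for FOXA1 and NDUFA6 for MDC1 knockdown in MM330, SDHD for ER and SDHC for FOXA1 knockdown in MM134, and NDUFV1 and MT-ND6 of MM330 minus HCC1428 for MDC1 knockdown). With no filter 4 of 134 were lost (MT-CO1 for E2 and NDUFV1 for MDC1 knockdown in MM134, NDUFB4 for ER and NDUFA10 for FOXA1 knockdown in MM330), and with RLE scaling 1 of 134 and DESeq2 1 of 95, both NDUFV1 for MDC1 knockdown in MM134. With the replicate block 9 of 134 were lost, 6 of them line differences (MT-CYB for E2, NDUFB6 for FOXA1 and COX6C, MT-ND6 and NDUFV1 for MDC1 knockdown in MM330, and MT-ND6 for MDC1 knockdown in MM134), besides NDUFB4 for ER and NDUFA6 for MDC1 knockdown in MM330 and NDUFV1 for MDC1 knockdown in MM134.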
